A study of Homo sapiens with 12 samples.

Results

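The genes described here control how a cell takes up, stores, exports and senses iron. They were chosen by name, as the rows whose symbol is TFRC, TFR2, SLC39A14, SLC11A2, FTH1, FTL, NCOA4, SLC40A1, ACO1 or IREB2, and all 10 were found among the 10945 rows with a gene symbol. They were measured in wild-type HepG2 cells, an established human liver cancer line that serves as a model of hepatocytes, in 4 culture media with 3 libraries each. The media were Plasmax, which is formulated after human plasma, high-glucose DMEM (HGDMEM), low-glucose DMEM (LGDMEM) and EMEM, the medium in which every culture was kept and seeded. The cells stayed in EMEM for 24 h after seeding and were then given one of the 4 media for 96 h, renewed at 48 h, always with 10% heat-inactivated serum. The study asks how iron availability acts on hepatocytes, and it rests on a single line.

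Iron reaches most cells bound to transferrin, which enters through the transferrin receptor TFRC and releases its iron in endosomes. Iron that is not used is stored in ferritin, a shell of heavy (FTH1) and light (FTL) chains, and leaves the cell through ferroportin, the product of SLC40A1. The iron regulatory proteins IRP1 (from ACO1) and IRP2 (from IREB2) bind stem-loops called iron-responsive elements when iron is scarce, which stabilises TFRC mRNA through its 3′ UTR and blocks translation of the ferritin chains and ferroportin through their 5′ UTRs. When iron is plentiful IRP1 instead carries an iron-sulphur cluster and acts as cytosolic aconitase, and IRP2 is degraded through FBXL5. The liver is the main iron store of the body.

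The stem-loops are shown because they are a known feature through which iron acts on these mRNAs. For FTL and SLC40A1 that action is on translation, which mRNA levels do not measure. Each line gives the sense strand of the DNA, with the 6-base loop in capitals, as found in GENCODE release 29 transcripts on GRCh38.
TFRC site 1: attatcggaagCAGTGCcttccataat
TFRC site 2: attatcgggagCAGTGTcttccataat
TFRC site 3: tgtatcggagaCAGTGAtctccatatg
TFRC site 4: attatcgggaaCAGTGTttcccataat
FTL: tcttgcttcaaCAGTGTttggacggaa
SLC40A1: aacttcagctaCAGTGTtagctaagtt
The TFRC sites lie in the 3′ UTR at chr3:196050980-196051006, chr3:196050576-196050602, chr3:196050511-196050537 and chr3:196050464-196050490 on the minus strand. The FTL site lies in the 5′ UTR at chr19:48965336-48965362 on the plus strand, and the SLC40A1 site in the 5′ UTR at chr2:189580662-189580688 on the minus strand. The search asked, on the sense strand of each UTR alone, for a loop of CAGTG and one more base that is not G, 5 paired bases on each side of it, an unpaired C before the 5′ arm and at least 4 of 5 further pairs beyond that C, with G-U pairs allowed. Of 19562 genes searched 11 held a match (0.0562%). It found 0 matches in NCOA4, ACO1, IREB2 and SLC11A2, which says only that these letters were not in the transcript searched. For FTH1, TFR2 and SLC39A14 no sites or match counts are given here. The 27 bases are a description of the reference sequence, and nothing about protein binding was measured.

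Cells in Plasmax had lower mRNA for 5 of the 10 iron genes than cells in each of the other 3 media. These were TFRC, the iron and zinc transporter SLC39A14, FTL, the ferritin turnover receptor NCOA4 and ACO1, and TFRC changed most, at 131 ± 7.07 CPM in Plasmax against means of 293 to 323 CPM in the other media (SD, n = 3). No iron gene was higher in Plasmax by the same test. FTH1, SLC40A1 and TFR2 had log2 fold changes above zero in all 3 comparisons without passing it, those of SLC40A1 and TFR2 against EMEM below zero without some single libraries. Levels are in CPM, the count of a gene scaled to a common library size by TMM, and log2 fold changes are Plasmax over the other medium. The 3 comparisons share the Plasmax libraries and are not independent of each other.

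The counts of called genes were read against those over all genes, with 0.05 as the threshold of the adjusted p from edgeR. The 10 genes were chosen with earlier results of these data known. The shares over all genes are therefore given as a description, and cannot serve as a test of an excess. Plasmax differed from HGDMEM in 6 of the 10 iron genes, all lower, where 26.9% of all genes were called and 14.1% were lower. Against LGDMEM 6 were called, all lower (21.2% of all genes called, 11.7% lower), and against EMEM 5, all lower (22.1% called, 12.1% lower). The median log2 fold change of the 10 genes was −0.49, −0.56 and −0.45 against HGDMEM, LGDMEM and EMEM, where that of all genes was 0.01, 0.00 and 0.02. Being lower in all 3 comparisons, as 5 of the 10 were, held for 8.43% of all genes. Without overlap between the libraries, 7 iron genes were lower in Plasmax than in HGDMEM (21.2% of all genes), 6 than in LGDMEM (18.0%) and 5 than in EMEM (20.2%), and 0 were higher. In TFRC, SLC39A14, FTL, NCOA4 and ACO1 every Plasmax library lay below all 9 libraries of the other media, which held for 11.3% of all genes. With each of the 12 libraries left out in turn, 4 to 7 iron genes were called against HGDMEM, 4 to 6 against LGDMEM and 4 to 7 against EMEM. Without LGDMEM 3, which stands apart from the rest, these were 6, 5 and 5.

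**Figure D1:**
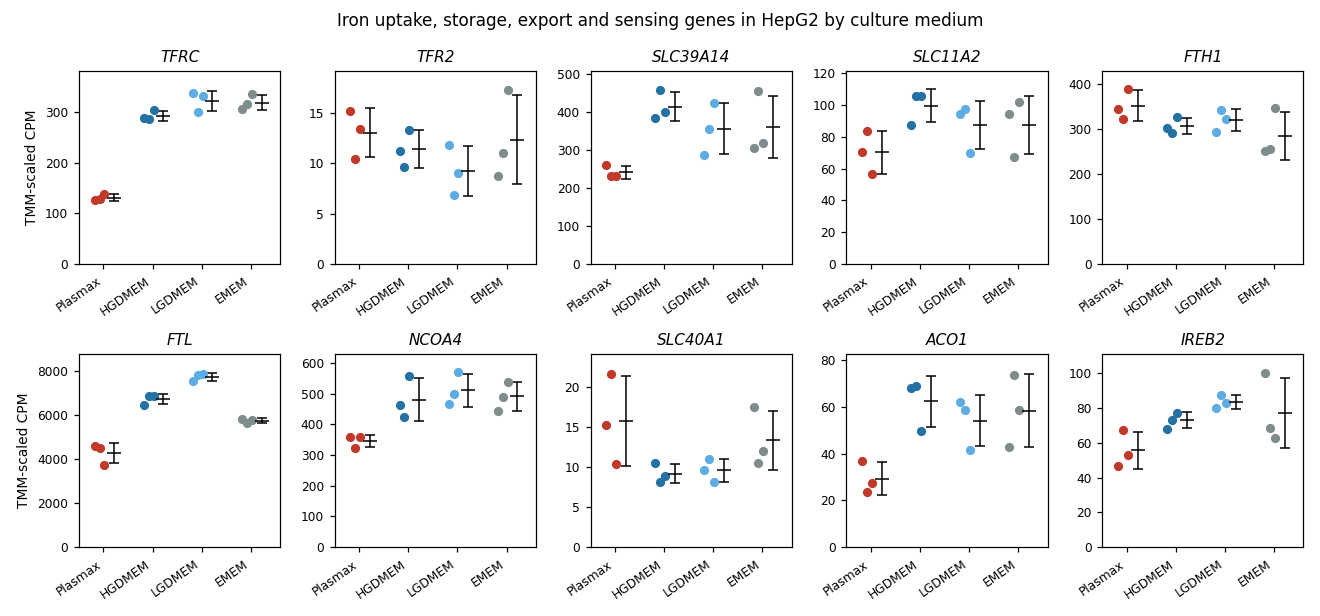
Level of each of the 10 iron genes (TMM-scaled CPM, vertical axes starting at 0) in the 3 libraries of each medium, with the mean and SD beside the points. The Plasmax points of TFRC, SLC39A14, FTL, NCOA4 and ACO1 lie below all 9 points of the other media, while those of FTH1, TFR2 and SLC40A1 overlap them.

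Facts of the series that touch these values are as follows. The libraries held 3995365 to 5840057 counts on rows with a symbol, and the labels do not state whether separate cultures stand behind them, so the p-values weigh differences against a spread between libraries that could be technical alone. LGDMEM 3 stood apart from the other 11 libraries on the second principal component, at −51.8 against −11.0 to 14.7. The liver identity was checked with 10 hepatocyte and hepatoma markers, all measured, whose summed level was 13284 to 14886 CPM in Plasmax and 22232 to 27603 CPM in the other media. The mean mitochondrial share of counts was 13.5% in Plasmax, 11.0% in HGDMEM, 10.9% in LGDMEM and 11.4% in EMEM, with an SD of 0.84% to 1.25% (n = 3). Of the leukocyte markers 3 of 7 were measured (CD68, CD14 and LYZ, summing to 1966 to 2193.5 CPM in Plasmax and 2122 to 3294 CPM elsewhere), of the endothelial and stromal markers 2 of 7 (COL1A1 and ACTA2, 66.7 to 93.0 CPM in Plasmax and 21.7 to 61.7 CPM elsewhere) and of the erythroid markers 0 of 8. The markers that were not measured, among them PTPRC, CD3E, CD163 and MARCO of the leukocyte list, were not analysed here. The hepatocyte and stromal sums separated Plasmax from the other media. The leukocyte sums of Plasmax overlapped those of LGDMEM (2122 to 2885 CPM). The lowest mitochondrial share in Plasmax (12.31%) barely exceeded the highest in EMEM (12.307%). The part of these shifts in the results was not tested.

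TFRC, the receptor for transferrin-bound iron, had 126, 128 and 139 CPM in the Plasmax libraries. It had 288, 287 and 305 CPM in HGDMEM, 337, 300.0 and 331 CPM in LGDMEM, and 306, 316 and 335 CPM in EMEM. The Plasmax libraries were all well below the rest, with at most 673 counts against at least 1259 counts. The log2 fold change was −1.16 against HGDMEM (SE 0.11, adjusted p = 5.52e-07), −1.30 against LGDMEM (SE 0.11, adjusted p = 2.43e-07) and −1.28 against EMEM (SE 0.11, adjusted p = 2.68e-07) by edgeR. By unadjusted p TFRC ranked 64, 24 and 28 of 10945 genes against these media, and it was called in all 23 alternative settings. The levels ran in the order Plasmax, HGDMEM, EMEM and LGDMEM. Its neighbours HGDMEM and EMEM did not differ by the test although their libraries did not overlap, which held for 15.0% of all genes (−0.12, 95% interval −0.35 to 0.10, adjusted p = 0.871), nor did LGDMEM and EMEM (0.02, 95% interval −0.21 to 0.24, adjusted p = 0.992). In bulk RNA, less TFRC mRNA in every cell and fewer cells that make it cannot be told apart.

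SLC39A14, also called ZIP14, carries iron that is not bound to transferrin into hepatocytes, along with zinc and manganese. Its levels were 262, 232 and 231 CPM in Plasmax, against 385, 460 and 400 CPM in HGDMEM. LGDMEM had 288, 356 and 423 CPM, and EMEM had 307, 455 and 319 CPM. The Plasmax libraries lay close together below all others, whereas those of LGDMEM and EMEM were widely spread. SLC39A14 fell against HGDMEM (log2 fold change −0.78, SE 0.16, adjusted p = 0.00131), LGDMEM (−0.56, SE 0.16, adjusted p = 0.0169) and EMEM (−0.58, SE 0.16, adjusted p = 0.0137) by edgeR. The fall against HGDMEM was called in all 23 alternative settings. Against LGDMEM the call was lost without LGDMEM 3 (adjusted p = 0.0669), Plasmax 2 (0.0617) or Plasmax 3 (0.0645), and against EMEM without EMEM 2 (log2 fold change −0.37, adjusted p = 0.0972), Plasmax 2 (0.0524) or Plasmax 3 (0.0539). The levels of LGDMEM, EMEM and HGDMEM followed Plasmax in that order and did not differ from each other by the test.

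SLC11A2, or DMT1, moves iron out of the endosome into the cytosol. It was measured at 70.4, 83.8 and 56.6 CPM in Plasmax, 87.8, 106 and 105 CPM in HGDMEM, 94.7, 97.5 and 70.2 CPM in LGDMEM, and 94.2, 67.1 and 102 CPM in EMEM. The Plasmax libraries were below those of HGDMEM but overlapped those of the other media. Its log2 fold change against HGDMEM was −0.50 (SE 0.18, adjusted p = 0.0484), a call that was lost in 9 of 23 alternative settings. Besides a threshold of 0.01 these included upper-quartile scaling (adjusted p = 0.0503), the replicate block (0.0528) and the fits without EMEM 1 (0.0567), HGDMEM 2 (0.121), HGDMEM 3 (0.13), Plasmax 1 (0.104) or Plasmax 3 (0.201). Against LGDMEM and EMEM the log2 fold changes were −0.31 (95% interval −0.70 to 0.07) and −0.32 (95% interval −0.70 to 0.07), with adjusted p = 0.245 and 0.235.

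TFR2 is a second transferrin receptor of hepatocytes that works mainly as a sensor of transferrin iron together with HFE. It was low in every library, with 35 to 82 counts. It had 15.2, 10.4 and 13.4 CPM in Plasmax, 11.3, 9.60 and 13.3 CPM in HGDMEM, 11.9, 6.88 and 9.06 CPM in LGDMEM, and 8.74, 11.0 and 17.25 CPM in EMEM. All 4 media overlapped, and the EMEM libraries alone spread over most of the range. No comparison called it, with log2 fold changes of 0.20 against HGDMEM (95% interval −0.46 to 0.85), 0.50 against LGDMEM (−0.18 to 1.17) and 0.07 against EMEM (−0.58 to 0.73). The last was −0.11 without EMEM 1, −0.05 without Plasmax 1 and near zero without EMEM 2. Each of the 95% intervals included zero, and the smallest difference detectable at this depth was not computed. Whether TFR2 moved otherwise than TFRC was not tested.

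Around these members, the list of iron uptake and endosomal iron cycle genes had 21 other genes, of which 14 were measured. Against HGDMEM 2 rose and 3 fell, against LGDMEM 2 rose and 1 fell, and against EMEM 1 rose and 1 fell. The list medians were −0.02, 0.21 and 0.25. Of all 10945 genes, 1404 rose and 1543 fell against HGDMEM, 1038 and 1283 against LGDMEM, and 1094 and 1323 against EMEM. The medians of all genes were 0.01, 0.00 and 0.02. These values also stand beside the markers and the other lists below, and whether a list differed from all genes was not tested. TF encodes transferrin itself, a main secreted product of hepatocytes, and had 560, 500 and 480 CPM in Plasmax, against 1010 to 1411 CPM in HGDMEM, 1005 to 1272 CPM in LGDMEM and 1266 to 1312 CPM in EMEM. Its libraries in Plasmax were all below the rest, with log2 fold changes of −1.23, −1.13 and −1.32 against HGDMEM, LGDMEM and EMEM (SE 0.13 each, edgeR's adjusted p = 1.57e-06, 5.38e-06 and 9.41e-07). TF is also one of the 10 hepatocyte markers, of which 5, 5 and 6 fell and 1, 2 and 1 rose in these comparisons.

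LRP1, a scavenging receptor that takes up haem bound to haemopexin among many other ligands, went the other way. It had 179 ± 12.8 CPM in Plasmax, 116 ± 7.01 CPM in HGDMEM, 101 ± 13.5 CPM in LGDMEM and 91.8 ± 12.2 CPM in EMEM (SD, n = 3), and rose by log2 fold changes of 0.63, 0.82 and 0.96 against these media (edgeR's adjusted p = 0.00242, 0.000405 and 8.4e-05). SLC48A1, a haem transporter of endolysosomes named after its values were seen, had 25.2 ± 1.24 CPM in Plasmax, 14.2 ± 2.10 CPM in HGDMEM, 13.7 ± 5.66 CPM in LGDMEM and 14.8 ± 5.27 CPM in EMEM. It did not pass against EMEM (log2 fold change 0.76, adjusted p = 0.0737), except without EMEM 3 (0.0295) or LGDMEM 3 (0.0392). Its log2 fold changes of 0.82 against HGDMEM and 0.86 against LGDMEM had adjusted p = 0.0461 and 0.0462, and both calls were lost with the replicate block (0.0548 and 0.0539) and without any one of the Plasmax libraries (0.0801 to 0.108) or EMEM 1 (0.0525 and 0.053). The call against HGDMEM was also lost without any HGDMEM library (0.0692 to 0.15), and that against LGDMEM without LGDMEM 1 (0.0999), LGDMEM 3 (0.166) or any HGDMEM library (0.0523 to 0.0561). The folate and haem carrier SLC46A1 fell against HGDMEM (log2 fold change −0.80, SE 0.27, adjusted p = 0.0379), a call lost without HGDMEM 1 (0.107), HGDMEM 3 (0.0968), Plasmax 1 (0.156) or Plasmax 3 (0.0605). Against LGDMEM (−0.70, adjusted p = 0.0809) and EMEM (−0.75, adjusted p = 0.0606) SLC46A1 did not pass, the second except without EMEM 2 (0.043) or Plasmax 2 (0.0461). HFE, the partner of TFR2, had 4, 1 and 0 counts in Plasmax and 15, 19 and 14 counts in HGDMEM (log2 fold change −3.06, SE 1.04, adjusted p = 0.0357). These are few reads, the call was lost without Plasmax 2 (adjusted p = 0.112), Plasmax 3 (0.115) or any one HGDMEM library (0.0634 to 0.0683), and EMEM 3 also had 0 counts. HFE did not pass against LGDMEM (−2.58, adjusted p = 0.0945) or EMEM (−1.59, adjusted p = 0.344).

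**Figure D2:**
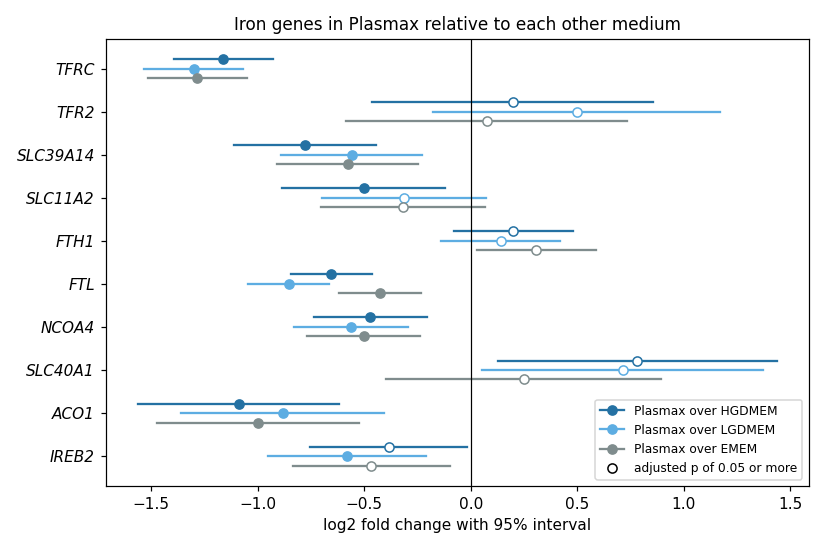
Log2 fold change of the 10 iron genes in Plasmax over HGDMEM, LGDMEM and EMEM (horizontal axis) with 95% intervals, where filled points passed an adjusted p of 0.05 in edgeR. TFRC lies between −1.30 and −1.16 in all 3 comparisons, and the open points of FTH1, SLC40A1 and TFR2 lie right of zero.

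Of the ferritin chains, FTL fell in Plasmax against every other medium and FTH1 passed in none. FTL, the light chain, had 4581, 4488 and 3746 CPM in Plasmax and 6450.0, 6856 and 6867 CPM in HGDMEM. LGDMEM had 7526, 7807 and 7858 CPM, and EMEM had 5825, 5618 and 5769.8 CPM. The libraries of the 4 media did not overlap, in the order Plasmax, EMEM, HGDMEM and LGDMEM. No overlap, in either direction, held for 15.0% of all genes between HGDMEM and EMEM, 11.7% between HGDMEM and LGDMEM and 12.0% between LGDMEM and EMEM. FTL fell by 0.65 against HGDMEM (SE 0.09, adjusted p = 3.85e-05), by 0.86 against LGDMEM (SE 0.09, adjusted p = 3.16e-06) and by 0.43 against EMEM (SE 0.09, adjusted p = 0.0026) on the log2 scale by edgeR. These calls held in all 23 alternative settings.

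FTH1, the heavy chain, carries the ferroxidase activity that oxidises iron on its way into the shell. It had 345, 323 and 390 CPM in Plasmax, 304, 292 and 327 CPM in HGDMEM, 295, 343 and 323 CPM in LGDMEM, and 252, 256 and 347 CPM in EMEM. The Plasmax libraries overlapped those of each other medium. The levels ran in the order EMEM, HGDMEM, LGDMEM and Plasmax, with no neighbours different by the test. The log2 fold changes of Plasmax were 0.20 (95% interval −0.08 to 0.48, adjusted p = 0.296) over HGDMEM, 0.14 (−0.14 to 0.42, adjusted p = 0.498) over LGDMEM and 0.31 (0.03 to 0.59, adjusted p = 0.108) over EMEM. Without EMEM 3, whose value was the highest of its medium, the last was 0.47 and passed (adjusted p = 0.0237). Both ferritin genes have processed pseudogenes, so the counts assigned to them are less certain than those of the other genes.

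Count ratios within a library need no scaling between libraries, and they are used to compare media, not the levels of different genes. The ratio of FTL to FTH1 counts was 13.3, 13.9 and 9.59 in the Plasmax libraries. In the other media it was 21.2, 23.5 and 21.0 (HGDMEM), 25.6, 22.7 and 24.3 (LGDMEM) and 23.1, 21.96 and 16.6 (EMEM). All 3 Plasmax ratios lay below the other 9, with a mean of 12.3 ± 2.33 against 20.6 ± 3.44 in EMEM, the next lowest. The ratio of TFRC to FTH1 counts was 0.37 ± 0.02 in Plasmax, 0.95 ± 0.02 in HGDMEM, 1.01 ± 0.14 in LGDMEM and 1.14 ± 0.15 in EMEM (SD, n = 3). The highest Plasmax library stood at 0.395 and the lowest of the other 9 at 0.874. Both ferritin chains together took 0.46 ± 0.04% of the counts on rows with a symbol in Plasmax, 0.72 ± 0.03% in HGDMEM, 0.80 ± 0.03% in LGDMEM and 0.60 ± 0.01% in EMEM. No test was made on these ratios.

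**Figure D3:**
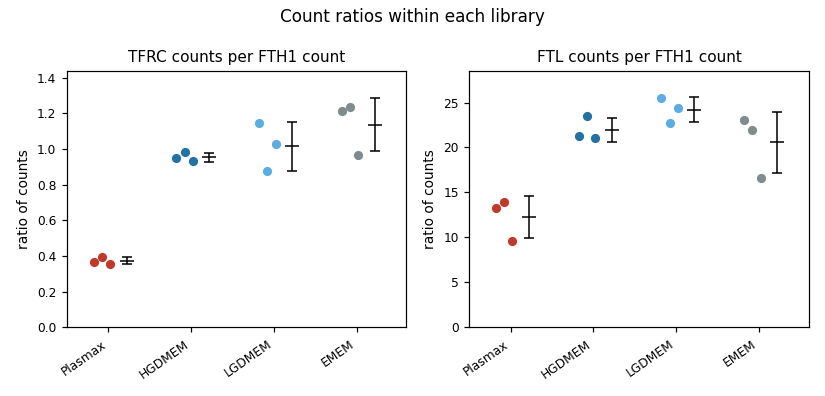
Ratio of TFRC to FTH1 counts (left) and of FTL to FTH1 counts (right) in each library, with the mean and SD of 3 libraries beside the points. In both panels the Plasmax points, at 0.356 to 0.395 and 9.59 to 13.9, lie below all points of the other media.

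NCOA4 delivers ferritin to the autophagosome, so that its iron is set free in the lysosome. Its level was 358, 324 and 358 CPM in Plasmax, 464, 423 and 557 CPM in HGDMEM, 465, 499.9 and 571 CPM in LGDMEM, and 444, 491 and 539 CPM in EMEM. Every Plasmax library was below the lowest of the others. By edgeR NCOA4 fell with log2 fold changes of −0.47 (SE 0.13, adjusted p = 0.00949), −0.56 (SE 0.13, adjusted p = 0.00385) and −0.50 (SE 0.13, adjusted p = 0.00789) against HGDMEM, LGDMEM and EMEM. The call against HGDMEM was lost without HGDMEM 3, its highest library (log2 fold change −0.35, adjusted p = 0.0691). The other media, in the order HGDMEM, EMEM and LGDMEM, did not differ by the test.

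Among 20 listed genes of iron chaperones, ferritin turnover and iron sensing 17 were measured. Of these 2 rose and 1 fell against HGDMEM, and 2 rose and 0 fell against LGDMEM and against EMEM. Of all genes 26.9%, 21.2% and 22.1% were called against HGDMEM, LGDMEM and EMEM. The list medians were 0.25, 0.13 and 0.13. ATG9A, a membrane protein of the growing autophagosome, rose in all 3 comparisons, to 92.7 ± 7.28 CPM in Plasmax against 54.6 ± 10.2, 61.7 ± 11.4 and 50.6 ± 6.50 CPM in HGDMEM, LGDMEM and EMEM. Its log2 fold changes were 0.76 (adjusted p = 0.00317), 0.59 (adjusted p = 0.0215) and 0.87 (adjusted p = 0.00157) by edgeR, the second lost without LGDMEM 1 (0.0993) or Plasmax 2 (0.0839). TAX1BP1, an autophagy adaptor that acts with NCOA4, rose against EMEM (log2 fold change 0.51, SE 0.17, adjusted p = 0.0429). That call was lost without EMEM 1, EMEM 3, LGDMEM 2, HGDMEM 1, HGDMEM 3, Plasmax 2 or Plasmax 3 (adjusted p = 0.0506 to 0.2), and TAX1BP1 did not pass against HGDMEM (0.37, adjusted p = 0.129) or LGDMEM (0.36, adjusted p = 0.152). PCBP4, of the family of cytosolic iron chaperones, rose against HGDMEM (0.63, adjusted p = 0.000452) and LGDMEM (0.34, adjusted p = 0.0372), the second lost without LGDMEM 1, LGDMEM 2, Plasmax 1 or Plasmax 2 (adjusted p = 0.0626 to 0.135), but not against EMEM (0.29, adjusted p = 0.0763). The gene of this list that fell against HGDMEM was FBXL5, described with IREB2.

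SLC40A1 encodes ferroportin, the only known cellular iron exporter, whose level at the membrane hepcidin controls. It was low, with 36 to 114 counts per library. The levels were 15.2, 21.6 and 10.3 CPM in Plasmax, 10.5, 8.11 and 8.88 CPM in HGDMEM, 9.59, 11.0 and 8.15 CPM in LGDMEM, and 17.5, 10.5 and 12.0 CPM in EMEM. Plasmax 3 lay within the range of HGDMEM and LGDMEM, and the other Plasmax libraries lay above both media. The log2 fold changes were 0.78 against HGDMEM (95% interval 0.13 to 1.44, adjusted p = 0.0724), 0.71 against LGDMEM (0.05 to 1.37, adjusted p = 0.118) and 0.25 against EMEM (−0.40 to 0.89, adjusted p = 0.618) by edgeR. Without Plasmax 3 the first was 1.01 and passed (adjusted p = 0.0296), and without Plasmax 2 the last was −0.05.

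The list of iron export, ferroxidases and haem breakdown had 9 other genes, of which 7 were measured. None rose, while 2 fell against HGDMEM, 2 against LGDMEM and 3 against EMEM, with list medians of −0.53, −0.69 and −0.69. Of all genes 14.1%, 11.7% and 12.1% fell in these comparisons. BLVRA, which reduces the biliverdin made from haem, fell in all 3, to 43.7 ± 6.89 CPM in Plasmax against 63.2 ± 3.99, 71.2 ± 6.93 and 70.8 ± 8.64 CPM in HGDMEM, LGDMEM and EMEM. Its log2 fold changes were −0.53 (adjusted p = 0.0176), −0.70 (adjusted p = 0.0039) and −0.69 (adjusted p = 0.00411) by edgeR. The first was lost without HGDMEM 1 (0.0508), HGDMEM 2 (0.0543) or Plasmax 3 (0.0901).

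CP (ceruloplasmin), a secreted ferroxidase, fell against EMEM (log2 fold change −1.06, SE 0.30, adjusted p = 0.0163). That call was lost without EMEM 3 (0.0641) or Plasmax 3 (0.085). Against HGDMEM (−0.32, adjusted p = 0.469) and LGDMEM (−0.68, adjusted p = 0.117) CP did not pass, the second except without LGDMEM 1 (−0.96, adjusted p = 0.0227). The haem exporter FLVCR1 had 7.62, 8.15 and 14.1 CPM in Plasmax, 15.8, 22.02 and 16.1 CPM in HGDMEM, and 17.5, 19.8 and 22.3 CPM in EMEM. It fell against HGDMEM (−0.86, adjusted p = 0.0446) and EMEM (−1.0, adjusted p = 0.0248), and neither call held without Plasmax 1 (0.154 and 0.098) or Plasmax 2 (0.147 and 0.0952). The first was also lost without any HGDMEM or EMEM library (0.052 to 0.164) and the second without EMEM 2 (0.0518) or EMEM 3 (0.0848). Against LGDMEM FLVCR1 did not pass (−0.69, adjusted p = 0.122), except without Plasmax 3 (−1.02, adjusted p = 0.0445). HMOX1, which opens the haem ring and frees its iron, passed against LGDMEM alone (−0.84, SE 0.23, adjusted p = 0.0147), a call lost without LGDMEM 2 (0.0624) or Plasmax 1 (0.0711). Against HGDMEM it had a log2 fold change of −0.48 (adjusted p = 0.139; −0.72 and 0.0258 without HGDMEM 1) and against EMEM one of −0.28 (adjusted p = 0.429).

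ACO1, the bifunctional IRP1 and cytosolic aconitase, had 37.1, 23.7 and 27.3 CPM in Plasmax. It had 68.1, 69.2 and 49.9 CPM in HGDMEM, 62.1, 58.6 and 41.7 CPM in LGDMEM, and 42.7, 73.9 and 58.7 CPM in EMEM. The highest Plasmax library was below the lowest of the other 9, by a small margin. The gene fell with log2 fold changes of −1.09 against HGDMEM (SE 0.23, adjusted p = 0.00151), −0.88 against LGDMEM (SE 0.23, adjusted p = 0.00934) and −1.0 against EMEM (SE 0.23, adjusted p = 0.00395) by edgeR. Without Plasmax 2 the second was −0.75 with adjusted p = 0.0528. After TFRC these were the largest falls among the 10 genes in the comparisons with HGDMEM, LGDMEM and EMEM, and LGDMEM, EMEM and HGDMEM, in rising order, did not differ by the test.

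IREB2 encodes IRP2, whose amount is set mainly by degradation of the protein. Its mRNA was measured at 46.8, 67.5 and 52.9 CPM in Plasmax, 68.1, 73.3 and 77.2 CPM in HGDMEM, 79.8, 87.3 and 83.1 CPM in LGDMEM, and 100, 68.7 and 62.9 CPM in EMEM. Plasmax lay below LGDMEM and, by a small margin (67.5 against 68.1 CPM), below HGDMEM. It overlapped EMEM, where 1 library was far above the others. The fall passed against LGDMEM (log2 fold change −0.58, SE 0.18, adjusted p = 0.0246) but not against HGDMEM (−0.39, 95% interval −0.76 to −0.02, adjusted p = 0.117) or EMEM (−0.47, 95% interval −0.84 to −0.10, adjusted p = 0.0667). The call against LGDMEM was lost without LGDMEM 2 (0.0681), Plasmax 1 (0.113) or Plasmax 3 (0.0818). Without Plasmax 2 the comparisons with HGDMEM (−0.55, adjusted p = 0.0498) and EMEM (−0.63, adjusted p = 0.0326) passed, and the comparison with EMEM also passed without EMEM 3 (−0.59, adjusted p = 0.038). FBXL5, which senses iron and marks IRP2 for degradation, had 9.89, 6.82 and 3.93 CPM in Plasmax against 11.8, 13.9 and 15.7 CPM in HGDMEM (log2 fold change −1.0, SE 0.33, adjusted p = 0.0333). That call was lost without HGDMEM 2 (0.069), HGDMEM 3 (0.105), Plasmax 2 (0.0801) or Plasmax 3 (0.136), and against LGDMEM (−0.73, adjusted p = 0.138) and EMEM (−0.88, adjusted p = 0.0703) FBXL5 did not pass, the last except without Plasmax 1 (−1.23, adjusted p = 0.0284).

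Of 11 listed genes of mitochondrial iron supply, all measured, 1 fell against HGDMEM, 0 were called against LGDMEM and 1 rose against EMEM. Of all genes 26.9%, 21.2% and 22.1% were called in these comparisons. The list medians of 0.11, −0.05 and 0.07 lay near those of all genes. NFS1, the desulfurase that provides sulphur for iron-sulphur clusters, fell against HGDMEM (log2 fold change −0.74, SE 0.20, adjusted p = 0.00868). It did not pass against LGDMEM (−0.43, adjusted p = 0.136) or EMEM (−0.44, adjusted p = 0.122), the second except without EMEM 2 (0.0489). ISCU, the scaffold on which the clusters are built, rose against EMEM (log2 fold change 0.65, SE 0.19, adjusted p = 0.021), a call lost without EMEM 1 (0.107), EMEM 3 (0.105) or Plasmax 3 (0.0756), and did not pass against HGDMEM (0.19, adjusted p = 0.497) or LGDMEM (0.45, adjusted p = 0.105). Among 10 mRNAs known from the literature to carry an iron-responsive element 8 were measured, 5 of them members, with list medians of 0.16, 0.14 and 0.16. In this list 0 rose and 3 fell against HGDMEM (TFRC, FTL and SLC11A2), 0 rose and 2 fell against LGDMEM (TFRC and FTL), and 1 rose and 2 fell against EMEM. The one that rose was EPAS1, the hypoxia-inducible factor HIF-2α, at 54.0 ± 6.45 CPM in Plasmax and 31.6 ± 5.70 CPM in EMEM, with a log2 fold change of 0.78 (adjusted p = 0.00638), and it did not pass against HGDMEM (0.40, adjusted p = 0.123) or LGDMEM (0.38, adjusted p = 0.167). Of the mRNAs shown above with their stem-loops, TFRC, with the element in its 3′ UTR, and FTL, with it in its 5′ UTR, both fell, and SLC40A1 did not pass the test.

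**Figure D4:**
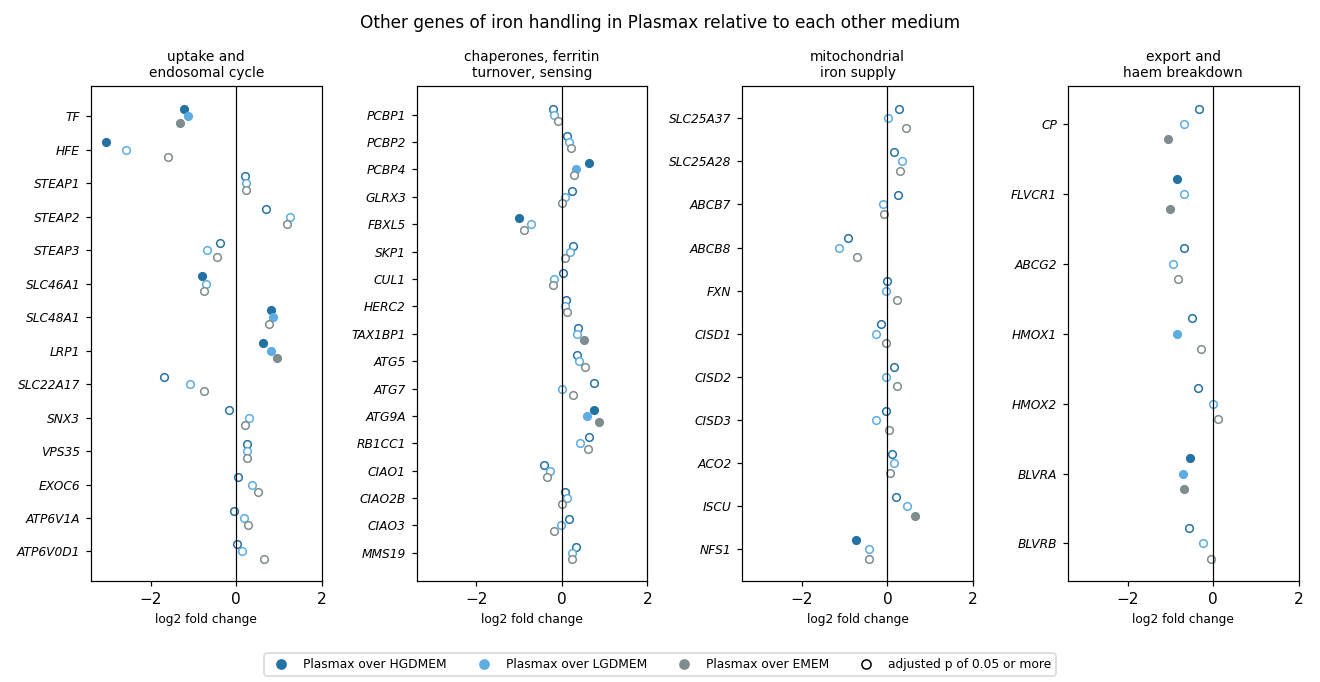
Log2 fold change in Plasmax over HGDMEM, LGDMEM and EMEM (horizontal axes) for the other measured genes of 4 lists of iron handling, with filled points for an adjusted p under 0.05 in edgeR. TF, BLVRA, LRP1 and ATG9A were called in all 3 comparisons, the first pair lower and the second higher, and most points of the mitochondrial list lie near zero and open.

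Between the media other than Plasmax 0 of the 10 iron genes passed. HGDMEM differed from EMEM in 18 genes (0.164%), LGDMEM from EMEM in 8 (0.0731%) and HGDMEM from LGDMEM in 7 (0.0640%), or 15 with the replicate block. At an unadjusted p under 0.05 there was 1 iron gene in each of these comparisons, FTL in all 3, where 830 (HGDMEM against EMEM), 866 (LGDMEM against EMEM) and 860 (HGDMEM against LGDMEM) of 10945 genes were under it. FTL was higher in LGDMEM than in EMEM with a log2 fold change of 0.43 (SE 0.09, 95% interval 0.24 to 0.62, adjusted p = 0.0926), without overlap of the libraries (12.0% of all genes, either direction). It ranked 19 of 10945 genes by unadjusted p there. DESeq2 (adjusted p = 0.00804), limma voom (adjusted p = 0.0449) and the edgeR fit without LGDMEM 1 (adjusted p = 0.0367) called it. For HGDMEM over EMEM the value was 0.23 (95% interval 0.04 to 0.42, adjusted p = 0.511), and for HGDMEM over LGDMEM −0.20 (95% interval −0.39 to −0.01, adjusted p = 0.61). For HGDMEM over EMEM the 95% interval of NCOA4 ran from −0.29 to 0.23, while that of SLC40A1, a gene with few counts, ran from −1.19 to 0.13.

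Tested over the 4 media at once, 5 of the 10 iron genes passed where 22.9% of all genes did. They were TFRC (adjusted p = 4e-07), FTL (1.48e-05), ACO1 (0.00623), SLC39A14 (0.00789) and NCOA4 (0.0102) by edgeR's quasi-likelihood test. The number was 2 without Plasmax 2 and 4 without Plasmax 3.

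The genes whose pattern was most like that of each iron gene were found by Pearson's r of log2 CPM over the 12 libraries among the 7843 genes whose mean reached 10 CPM. They are given as a description, since the libraries share their media and Plasmax stands apart from the rest. For TFRC these were the creatine kinase CKB (0.986), the sterol reductase DHCR7 (0.981) and the glutamate dehydrogenase GLUD1 (0.981). For FTL they were DLK1 (0.964), CRLS1 (0.96) and NADK2 (0.953), for NCOA4 SLC16A3 (0.964), PHB (0.956) and APOA2 (0.946), for ACO1 CDC42EP4 (0.929), CCNC (0.929) and RCAN1 (0.92), and for SLC39A14 PLOD2 (0.942), OAT (0.931) and PET117 (0.924). None of these 15 genes is another member. The genes most like FTH1 reached 0.897 (UCHL3), and those most like SLC40A1 0.926 (RAI1), IREB2 0.896 (PTPA), SLC11A2 0.895 (ATP5PF) and TFR2 0.854 (ACSF2).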

How the data were processed

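RNA of HepG2 cells was made into 12 QuantSeq 3′ mRNA libraries, per the labels' protocols. The submitters' processing notes name the build hg19/GRCh37 and, without role or order, the tools limma 3.40.6, featureCounts 1.6.3, STAR 2.7.5b, cutadapt 1.16 and FastQC 0.72. The authors deposited raw read counts per gene in 11546 rows, apparently filtered on low counts by an unstated rule, since the third highest CPM of a row was at least 2.51. Of these, 601 rows without a symbol (2.92% to 3.71% of a library's counts) were left out, and 0 columns belonged to other samples. How reads shared by near-identical genes were counted is not given in the sources used here.

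For the tests, edgeR 4.0.16 under R 4.3.3 was applied to the counts (quasi-likelihood, TMM, all 12 libraries in one fit, no block, Benjamini-Hochberg over 10945 genes, 8 residual degrees of freedom), after a check on simulated data. Libraries were grouped by the medium in the labels. The members and lists were chosen with earlier results of these data known. All members, TF, HMOX1 and FBXL5 are named, with up to 4 called genes per list by smallest adjusted p and the 3 genes most like each member. An interval or SE comes from the fit.

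Replicate numbers are shared by the media, without a label that ties them to a batch. Over 4366 genes with a high mean, same-numbered libraries deviated together weakly between HGDMEM and EMEM (r of 0.186, 0.11 and 0.124) and between HGDMEM and LGDMEM (0.246, 0.165 and 0.21). What the numbers stand for is not known from the labels. LGDMEM and EMEM gave 0.325, 0.193 and −0.0121. Plasmax gave −0.0461, −0.121 and 0.00739 with HGDMEM, −0.0943, −0.0409 and −0.029 with LGDMEM, and −0.00498, −0.0475 and 0.14 with EMEM. Most of these Plasmax values lay below zero. Alternatives were other scalings, filters and tests (DESeq2 1.42.0, limma voom 3.58.1), the replicate block, fits to the compared media alone, an adjusted p of 0.01 and leaving out each library in turn.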

Additional observations from a re-analysis of the deposited data

How the results depend on the processing

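Over 23 alternative settings the 10 iron genes and 6 comparisons gave 1380 values, of which 1349 kept their direction and side of the threshold or were uncalled throughout, 23 lost a call, 8 gained one and 0 called values changed sign (30 uncalled ones did). With the replicate block 5, 6 and 5 iron genes were called in Plasmax against HGDMEM, LGDMEM and EMEM. The block changed the call of no other iron gene than SLC11A2. At an adjusted p of 0.01 genes called in Plasmax fell to 1711 against HGDMEM, 1254 against LGDMEM and 1290 against EMEM, and to 1419 over the 4 media. LGDMEM against EMEM had 8 genes called, but 2 with rows without a symbol, 65 with DESeq2, 15 with the replicate block, 2 at 0.01, 2 in the fit to both media alone and 2 to 87 without 1 library, with 1 iron gene (FTL) under DESeq2 and under limma voom, and 0 to 1 without 1 library. HGDMEM against EMEM had 18, but 11 with rows without a symbol, 68 with DESeq2, 2 at 0.01, 43 in the fit to both media alone, 23 with the block and 1 to 45 without 1 library. HGDMEM against LGDMEM had 7, but 55 with DESeq2, 4 with limma voom, 15 with the block, 2 in the fit to both media alone and 4 to 118 without 1 library. Over the 4 media 2 to 5 iron genes were called without 1 library. The cause of these moves was not tested. Other scalings moved the median of all genes by less than 0.1. Depth limits genes with few counts, among them TFR2, SLC40A1, FBXL5 and HFE.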
